A study of Mus musculus with 24 samples.

Results

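Genes with which the lining of the gut meets bacteria, 10 in all, were followed in 24 male IL-10 KO mice, in RNA of the proximal colon. They are the antimicrobial lectin genes Reg3g and Reg3b, the goblet cell gene Retnlb, the siderophore-binding lipocalin Lcn2, the serum amyloid A genes Saa1, Saa2 and Saa3, the inducible nitric oxide synthase Nos2, the dual oxidase Duox2 and its maturation factor Duoxa2. They were chosen by name, and every probe whose only gene symbol was 1 of the 10 was taken. This gave 13 probes of the 45281 on each array, for 10 of the 19057 genes with a probe. All 13 passed the filter on low values described below.
The mice were of the 129/SvEvIL-10 KO strain, 3 months old, in 4 groups of 6, and each mouse had its own array. Mothers received 5000 or 25 IU vitamin D per kg diet through pregnancy and lactation, and the pups received the same or the opposite diet from weaning. HH and HL mice had mothers on the high diet and LH and LL mice had mothers on the low diet, while HH and LH pups received the high diet themselves after weaning and HL and LL pups the low diet. All 24 mice lack IL-10 and develop inflammation of the gut in non-sterile housing, and no wild-type mice were analysed here. Each mouse is named by its group and the label of its mother, and 4 pairs of mice in different groups share a mother.

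Epithelial cells of the colon secrete lectins, defensins and iron-withholding proteins into the mucus, and they produce hydrogen peroxide and nitric oxide, so that bacteria are kept away from the surface. Most of these genes are switched on by bacterial contact and by cytokines such as IL-22, IL-17 and IL-6, acting through STAT3, NF-kappaB and C/EBP factors, and they are commonly high in an inflamed colon. Serum amyloid A proteins are made in large amounts by the liver in the acute phase, and also by gut epithelium, while Saa3 in the mouse is made by macrophages and other cells outside the liver.

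Close copies, Saa1 with Saa2 and Reg3g with Reg3b, are among the 10 genes, and their promoters are shown. These bases lie before the start used for each gene, and their likeness does not tell whether an array probe reads both copies. The sequences are the 250 bases before an annotated start (RefSeq, GRCm38.p6), read 5′ to 3′ on the strand of the gene. For Saa3 all of these bases, and for Saa1 most of them, lie inside the span of the gene. Those spans run to 46719615 and 46743181, so the start used is not the outermost one. The window of Duox2, not printed, also lies inside its gene. Windows were found for 8 of the 10 genes by symbol. Capitals mark matches on either strand to the NF-kappaB consensus, to the STAT motif TTCNNNGAA and to the C/EBP motif TTNNGNAA, and no match overlapped another.
Saa1, chr7:46742981-46743230, minus strand: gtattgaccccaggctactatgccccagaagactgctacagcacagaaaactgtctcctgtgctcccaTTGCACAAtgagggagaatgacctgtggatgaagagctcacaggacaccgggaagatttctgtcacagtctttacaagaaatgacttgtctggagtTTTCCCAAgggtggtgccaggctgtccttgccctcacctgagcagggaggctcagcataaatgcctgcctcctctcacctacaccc
Saa2, chr7:46751583-46751832, plus strand: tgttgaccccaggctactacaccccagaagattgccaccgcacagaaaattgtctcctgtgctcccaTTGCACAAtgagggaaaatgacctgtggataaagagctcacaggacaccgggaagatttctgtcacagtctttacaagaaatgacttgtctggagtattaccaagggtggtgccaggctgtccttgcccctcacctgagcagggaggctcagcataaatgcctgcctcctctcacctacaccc
Saa3, chr7:46715677-46715926, minus strand: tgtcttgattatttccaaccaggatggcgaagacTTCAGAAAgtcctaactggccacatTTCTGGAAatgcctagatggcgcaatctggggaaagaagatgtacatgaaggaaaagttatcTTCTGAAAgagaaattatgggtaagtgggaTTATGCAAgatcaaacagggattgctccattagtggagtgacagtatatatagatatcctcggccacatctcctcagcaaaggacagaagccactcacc
Reg3g, chr6:78468875-78469124, minus strand: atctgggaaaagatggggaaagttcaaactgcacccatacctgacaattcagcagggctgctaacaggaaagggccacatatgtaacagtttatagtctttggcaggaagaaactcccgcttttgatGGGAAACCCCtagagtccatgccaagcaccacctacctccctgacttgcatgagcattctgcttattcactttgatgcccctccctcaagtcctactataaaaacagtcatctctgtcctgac
Reg3b, chr6:78370635-78370884, plus strand: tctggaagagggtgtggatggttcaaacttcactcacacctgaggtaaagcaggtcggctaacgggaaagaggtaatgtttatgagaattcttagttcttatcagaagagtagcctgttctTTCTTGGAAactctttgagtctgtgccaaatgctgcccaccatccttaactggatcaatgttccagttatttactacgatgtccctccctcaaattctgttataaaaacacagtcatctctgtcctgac
Over 300 bases, which add the 50 bases after the start, the windows of Saa1 and Saa2 were identical at 287 of 301 aligned positions, or 95.3%. Those of Reg3g and Reg3b were identical at 69.0%, while every other pair of the 8 windows, Saa1 and Saa3 included, lay between 48.3% and 54.2%. The Reg3g window held an NF-kappaB match, GGGAAACCCC, starting at position -123 from the gene start, and the Reg3b window a STAT match, TTCTTGGAA, at -129. An NF-kappaB match was in 1 of the 8 windows and in 4.51% of 32851 windows of all genes, and a STAT match was in 1 of 8 and in 8.3%. A C/EBP match was in 5 of 8 windows and in 40.7% of all. Saa3 held 4 C/EBP matches, Saa1 2 and Saa2 1. A match is only a run of letters, and binding was not measured.

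None of the 10 genes differed by diet at the threshold used. Differences were taken on the log2 scale from quantile-normalized intensities, as high minus low diet with 12 mice on each side, and were tested with limma with Benjamini-Hochberg adjustment over all probes kept. For the post-weaning diet, 0 of the 10 genes passed at an adjusted p of 0.05, as did 0% of the 31298 probes tested, and for the pre-weaning diet 0 of 10 passed and 0% of 31308 probes. At an unadjusted p under 0.05, 1 of 10 genes was found for the post-weaning diet, beside 4.22% of all probes, and 0 of 10 for the pre-weaning diet, beside 2.71%. For the interaction of the diets, 0 of 10 passed (0% of 37654 probes; adjusted p = 1 for each) and 0 of 10 had an unadjusted p under 0.05, beside 2.94% of all probes. An overall test of the 4 groups (adjusted p = 0.998 for each) and the 6 pairs of groups also gave 0 genes.
On the high post-weaning diet 6 of the genes had higher and 4 had lower means, with a median log2 difference of 0.02, beside -0.004 over all 15009 genes tested. With the high pre-weaning diet 2 were higher and 8 lower, with a median of -0.12, beside 0.002 over all 14960 genes. The pre-weaning count depended on the scaling: with arrays scaled to a common median and no quantile normalization, 6 were higher and 4 lower. The median over the genes was then 0.022, but the median over all 31308 probes was itself 0.034, beside 0.003 with quantile normalization. Leaving out single mice also moved the pre-weaning count, from 1 higher and 9 lower (as without HL 2A) to 4 higher and 6 lower (without HL 10B). The confidence intervals of the log2 differences, drawn in the plot of differences by diet, reached beyond 0.5 on at least 1 side for Lcn2, Saa3, the brighter Nos2 probe, Duox2 and the dimmer probes of Reg3b and Saa1. Those of Retnlb and the brighter Reg3b probe, near the top of the scale, and of Saa2 and the dimmer Nos2 probe, near background, were shorter, but differences may be compressed there.

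**Figure D1:**
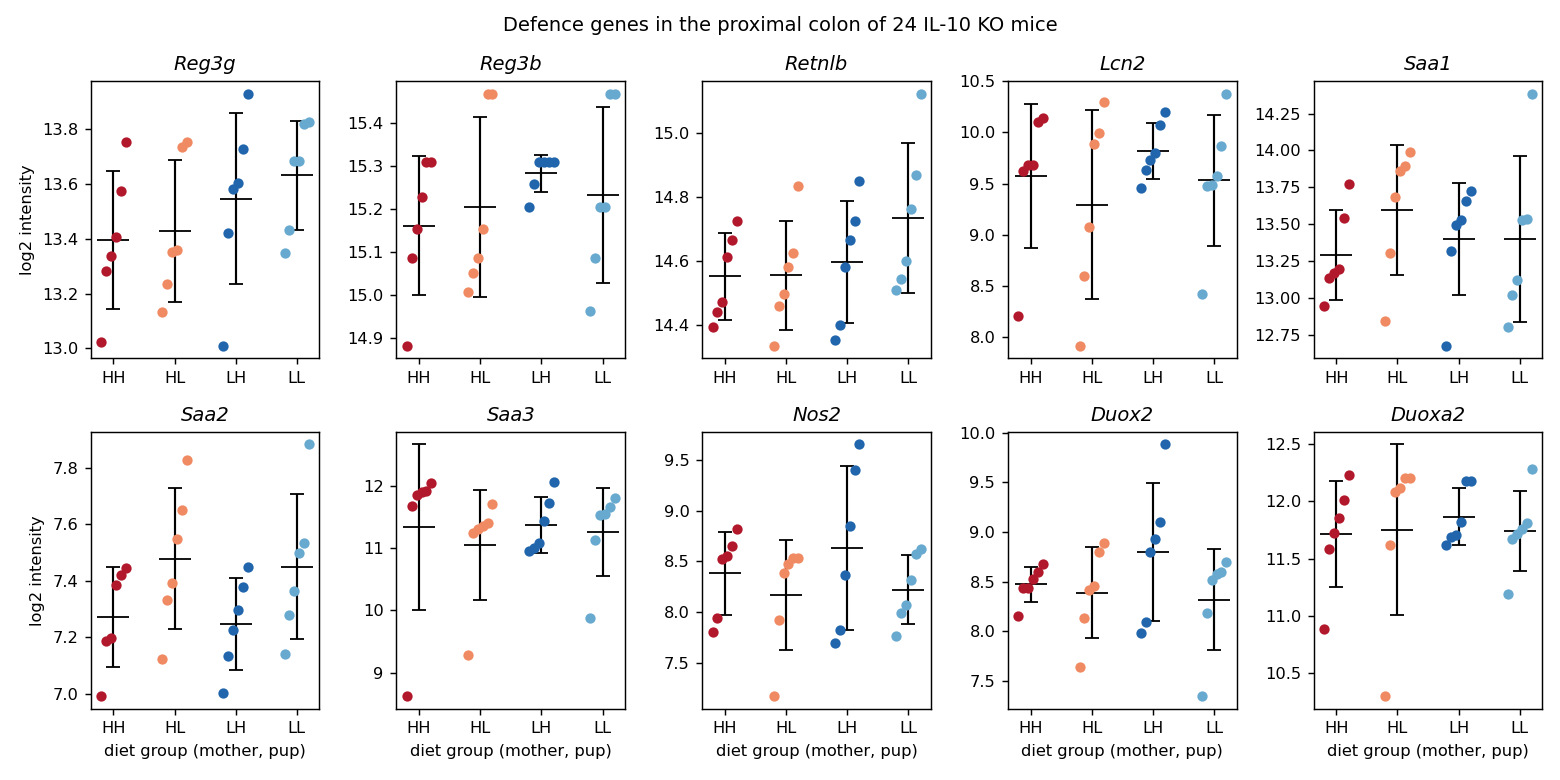
Log2 intensity (y axis) of the brightest probe of each gene in the 4 diet groups (x axis), with 1 point per mouse and the mean ± SD of 6 mice in black. The groups overlap for every gene, and single low mice are seen for Saa3 in HH, HL and LL.

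**Figure D2:**
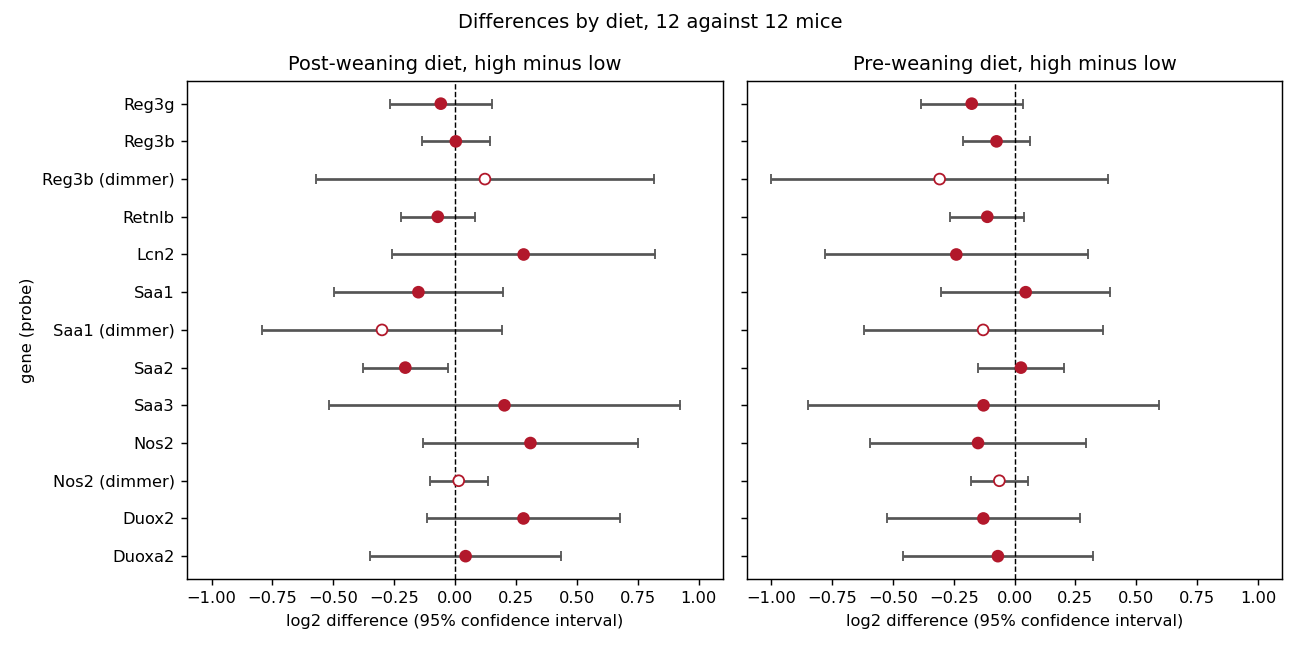
Log2 difference, high minus low diet, with its 95% confidence interval (x axis) for each of the 13 probes (y axis), for the post-weaning (left) and the pre-weaning diet (right). Filled points are the brightest probe of a gene and open points its dimmer probe; the interval excludes 0 for Saa2 by post-weaning diet alone, which did not pass the adjustment.

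Reg3g encodes a secreted C-type lectin that kills Gram-positive bacteria, and its levels were high in all groups. The lowest, median and highest log2 intensities were 13.02, 13.37 and 13.75 in HH, 13.13, 13.36 and 13.75 in HL, 13.01, 13.59 and 13.93 in LH and 13.35, 13.68 and 13.82 in LL mice (n = 6 each). The groups overlapped over most of their range, and 3 of 12 mice with high-diet mothers exceeded the mean of those with low-diet mothers. The pre-weaning difference was -0.18 (95% confidence interval -0.38 to 0.03; permutation p = 0.0961; adjusted p = 0.999 from limma), and the post-weaning difference was -0.06.
Reg3b encodes a related lectin active mainly against Gram-negative bacteria. Its brightest probe lay at 15.16 ± 0.16 for HH, 15.20 ± 0.21 for HL, 15.28 ± 0.04 for LH and 15.23 ± 0.20 for LL (mean ± SD, n = 6). On 4 arrays the probe was the brightest of all 45281, at 15.47, which is the top of the scale. The 24 arrays shared 11 different values, so small differences at this probe may be lost. It ran from 14.88 to 15.47, and with median scaling from 14.95 to 15.48, which is no wider. The dimmer probe of Reg3b, below that ceiling, ranged from 9.07 (LH 12B) to 12.37 (LH 13), a 9.85-fold range. Its differences were 0.12 by post-weaning diet (95% confidence interval -0.57 to 0.82) and -0.31 by pre-weaning diet (-1.0 to 0.39).
Retnlb, a product of goblet cells that acts against bacteria and worms, was also bright, at 14.34 to 15.12 over the 24 mice. It ranked from 9 to 64 among the 45281 probes of an array, where quantile normalization compresses differences, and with median scaling it ran from 13.76 to 15.17. It was at 14.55 ± 0.13 for HH, 14.55 ± 0.17 for HL, 14.60 ± 0.19 for LH and 14.73 ± 0.23 for LL (mean ± SD, n = 6). The highest mouse was LL 6, and the differences were -0.07 by post-weaning and -0.11 by pre-weaning diet.
Lcn2 binds bacterial siderophores and so withholds iron. The lowest, median and highest values were 8.21, 9.68 and 10.14 in HH, 7.92, 9.48 and 10.30 in HL, 9.46, 9.77 and 10.19 in LH and 8.42, 9.53 and 10.38 in LL mice (n = 6 each). The upper values were alike in all groups, and the low values came from 5 mice, HL 10B, HH 10B, LL 6, HL 2A and HL 14A. Of 12 high-diet mice after weaning 11 exceeded the low-diet mean, with a difference of 0.28 (1.22-fold; 95% confidence interval -0.26 to 0.82; adjusted p = 0.944 from limma). It was 0.14 without HL 10B, 0.17 without LL 6 and 0.42 without HH 10B. Lcn2 is made by neutrophils as well as by epithelium, and in bulk tissue a change in the number of cells cannot be told apart from a change in RNA per cell.

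Saa1 and Saa2 encode the acute-phase serum amyloids A, and their promoter windows were the most alike of the 8. The brightest Saa1 probe was at 13.29 ± 0.30 for HH, 13.60 ± 0.44 for HL, 13.40 ± 0.38 for LH and 13.40 ± 0.56 for LL (mean ± SD, n = 6), and its dimmer probe ranged from 8.26 to 10.54. Both had lower means on the high post-weaning diet, with differences of -0.15 (95% confidence interval -0.50 to 0.20) and -0.30 (-0.79 to 0.19).
The Saa2 probe was near background and was detected on 11 of 24 arrays. The lowest, median and highest values were 6.99, 7.29 and 7.44 in HH, 7.12, 7.47 and 7.83 in HL, 7.0, 7.26 and 7.45 in LH and 7.14, 7.43 and 7.88 in LL mice (n = 6 each). None of the 12 mice on the high post-weaning diet reached the mean of the low-diet mice, 7.46, but the groups overlapped below it. The difference of -0.20 (0.868-fold; standard error 0.0845; 95% confidence interval -0.38 to -0.03) had a permutation p of 0.0231 and did not pass the adjustment (adjusted p = 0.944 from limma). All 4 pairs of mice sharing a mother had a lower Saa2 value on the high diet, by -0.45 for label 10, -0.34 for 10B, -0.49 for 13 and -0.16 for 3B. With median scaling pair 3B went the other way (7.40 in LH 3B and 7.32 in LL 3B), while the other pairs kept their sign. Saa2 was detected in neither mouse of pair 10B, and in pair 3B only in the high-diet mouse. By pre-weaning diet the difference was 0.03.
Across the 24 mice Saa2 followed the dimmer Saa1 probe (Pearson r = 0.76, Spearman rho = 0.74, permutation adjusted p = 0.00078 and 0.00338 over 78 pairs of probes; r = 0.64 without the 2 mice farthest from the Saa1 median). By post-weaning diet the coefficient was 0.91 among low-diet and 0.30 among high-diet mice. With the brightest Saa1 probe Saa2 had r = 0.57 and rho = 0.51 (permutation adjusted p = 0.0311 and 0.0947 over 78 pairs of probes). There r was 0.43 without the 2 mice farthest from the Saa1 median, 0.88 among low-diet and -0.14 among high-diet mice. Both Saa1 probes varied together with r = 0.66. Which of the copies each probe reads was not checked here, so values of Saa1 and Saa2 may each hold signal of the other. The liver is the main source of these proteins in blood, and of 8 hepatocyte markers Alb, Apoa2, Apoh, Fgb and Ambp were detected on 0 of 24 arrays, Apoa1 on 1, Serpina1a on 2 and Ttr on all 24.

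Saa3 had the widest range of the 10 brightest probes, and this range came from 3 mice. The lowest, median and highest values were 8.62, 11.88 and 12.04 in HH, 9.28, 11.33 and 11.71 in HL, 10.96, 11.26 and 12.07 in LH and 9.88, 11.54 and 11.80 in LL mice (n = 6 each). HH 10B (8.62), its littermate HL 10B (9.28) and LL 6 (9.88) stood apart from the other 21 mice, which lay between 10.96 and 12.07. The post-weaning difference was 0.20 (95% confidence interval -0.52 to 0.92) and the pre-weaning difference -0.13 (-0.85 to 0.59). The post-weaning difference rested on single mice and was 0.03 without HL 10B, 0.06 without LL 6 and 0.47 without HH 10B. The pre-weaning difference was 0.18 without the 3 mice, which reversed its sign.
The same 3 mice had the lowest Lcn2 values (8.21, 7.92 and 8.42, beside 8.60 to 10.38 in the others). For Duoxa2, HH 10B and HL 10B had the lowest values (10.88 and 10.30, beside 11.19 to 12.29 in the others), and LL 6 was at 11.81. Nos2 was below the median of the others in all 3 mice (7.80, 7.92 and 8.0, beside a median of 8.52), but within their range of 7.17 to 9.65. Reg3g was also below that median in all 3 (13.02, 13.24 and 13.43, beside 13.58), with HH 10B the 2nd lowest and HL 10B the 4th lowest of the 24 mice. Duox2 was at 8.67, 8.42 and 8.70, beside a median of 8.51. LL 6 had the highest values of all 24 mice for Saa1 (14.39), Saa2 (7.88) and Retnlb (15.12), while HH 10B had the lowest for Saa2 (6.99).
Other lists of genes also differed in these mice. Averaged over 12 smooth muscle genes, each centred on its mean, the 3 mice were at 0.56 (HH 10B), 0.82 (HL 10B) and 0.78 (LL 6), above the other 21 mice at -0.35 to 0.12. The goblet cell markers (7 genes) were at 0.35 to 0.37, above the range of -0.25 to 0.23 in the others. The macrophage and monocyte markers (9 genes) were at -0.48 to -0.41, below the range of -0.25 to 0.34, and the neutrophil markers (7 genes) were at -1.29 to -0.57, below the range of -0.40 to 0.97. Also below the range of the others were the Paneth cell markers (2 genes), at -0.88 to -0.70 beside -0.30 to 0.53, and the genes of the IL-22, IL-17, IL-6 and STAT3 pathways (17 genes), at -0.37 to -0.19 beside -0.12 to 0.18. Epithelial markers (11 genes) were at 0.27 to 0.52, within the range of the others. Of the neutrophil markers Cxcr2 and Mmp8 were detected on 0 arrays, and of the macrophage markers Itgam. The share of probes detected was 29.5% to 33.7% in the 3 mice and 21.2% to 37.0% in the others. The part of tissue composition in the low Saa3 and Lcn2 values was not tested.

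**Figure D3:**
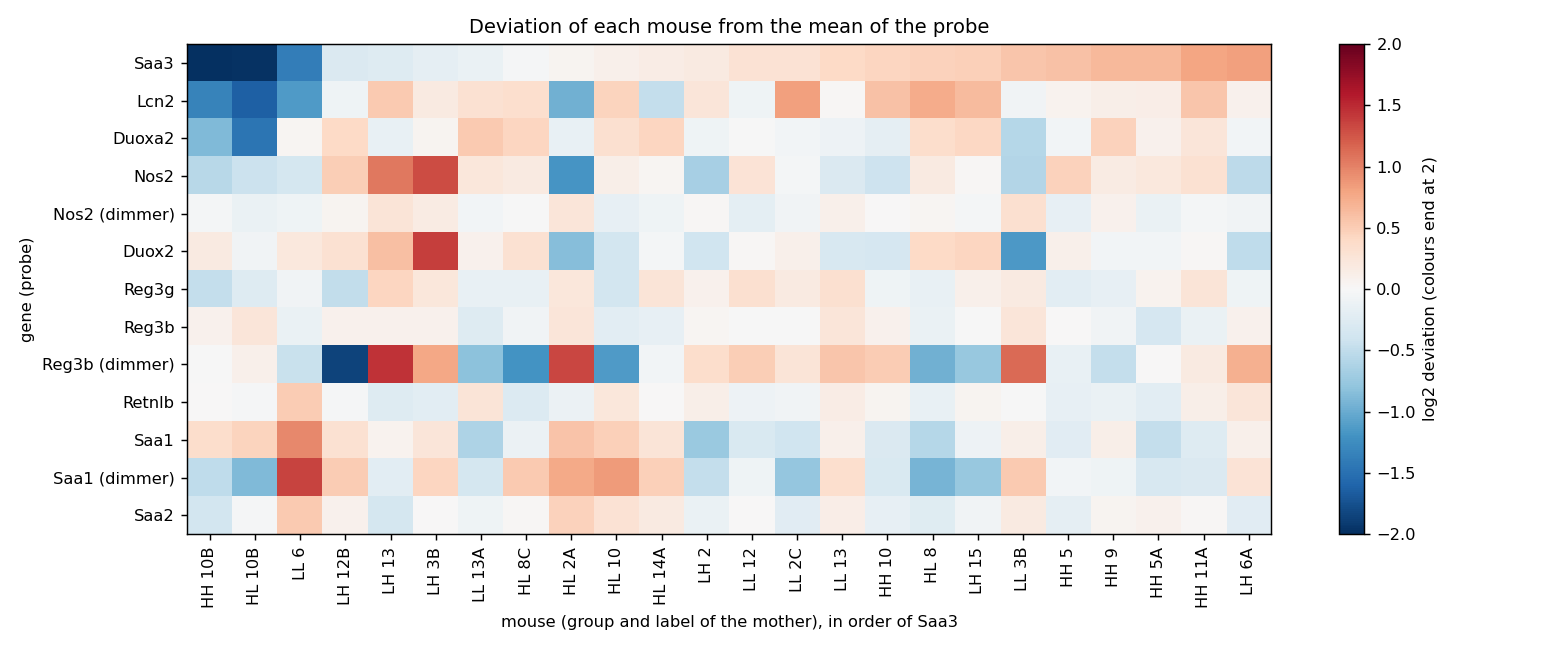
Deviation of each mouse (columns, in order of Saa3) from the mean of each of the 13 probes (rows), in log2 units from -2 (blue) to 2 (red). HH 10B, HL 10B and LL 6 are blue for Saa3 and Lcn2 but near the mean for Duox2, and LL 6 is red for both Saa1 probes.

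Nos2 makes nitric oxide from arginine, and Duox2 makes hydrogen peroxide at the apical surface. The lowest, median and highest Nos2 values were 7.80, 8.54 and 8.82 in HH, 7.17, 8.43 and 8.54 in HL, 7.69, 8.61 and 9.65 in LH and 7.77, 8.19 and 8.62 in LL mice (n = 6 each). For Duox2 they were 8.15, 8.48 and 8.67 in HH, 7.64, 8.44 and 8.89 in HL, 7.98, 8.86 and 9.88 in LH and 7.34, 8.54 and 8.70 in LL mice (n = 6 each). The LH group was the most variable for both genes, with LH 3B and LH 13 the highest of all 24 mice for both, and its lower mice lay among those of the other groups.
On the high post-weaning diet the difference was 0.31 for Nos2 (1.24-fold; 95% confidence interval -0.13 to 0.75) and 0.28 for Duox2 (1.22-fold; -0.12 to 0.68), with an adjusted p of 0.944 from limma for both. Without LH 3B they were 0.21 and 0.17. By pre-weaning diet the differences were -0.15 and -0.13. Both genes were detected on 22 arrays. A dimmer Nos2 probe was detected on 2 arrays and its values did not follow those of the brighter probe (r = -0.03).
Littermates differed by more than the mean difference between the post-weaning diets in 3 of the 4 pairs for Nos2 and in 2 of the 4 for Duox2, and for Nos2 1 of these 3 pairs was lower on the high diet. LH 3B was above LL 3B by 2.54 for Duox2 and 1.89 for Nos2, and LH 13 was above LL 13 by 0.92 and 1.33. Neither gene was detected in LL 3B (detection scores 0.901 for Duox2 and 0.986 for Nos2). Its array had 21.9% of probes detected, beside 34.7% for LH 3B. In the pairs of mothers on the high diet, HH 10 and HL 10 differed by 0.02 for Duox2 and -0.53 for Nos2, and HH 10B and HL 10B by 0.26 and -0.12. Lcn2 was higher on the high diet in all 4 pairs, by 0.15 to 0.50, and Duox2 in all 4, though by only 0.02 for label 10. Apart from these and Saa2, the genes had pairs in both directions. With 4 pairs and 10 genes such agreement can arise by chance, and its share over all genes was not counted.
Duoxa2, which brings Duox2 to the cell surface, was detected on all 24 arrays and was at 11.71 ± 0.47 for HH, 11.75 ± 0.75 for HL, 11.87 ± 0.25 for LH and 11.74 ± 0.35 for LL (mean ± SD, n = 6). Its differences were 0.04 by post-weaning and -0.07 by pre-weaning diet. Both changed sign without the 3 mice named above, to -0.01 and 0.17.

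Whether the genes varied together from mouse to mouse was examined over the 36 pairs of the 9 genes detected on at least 12 arrays. Pearson coefficients of 7 pairs passed an adjusted permutation p of 0.05, 4 of them positive and 3 negative, and the median over the 36 pairs was -0.03. Of the 7, 3 involved Saa3, whose values fell into clusters. Only 3 pairs passed by both Pearson and Spearman coefficients. With median scaling in place of quantile normalization 20 pairs passed, and without HH 10B, HL 10B and LL 6 there were 2. Median scaling aligns only the medians of the arrays, whose mean raw intensities ran from 245 to 637. Under it r of Reg3g and Lcn2 went from 0.26 to 0.81, and that of Reg3g and the brightest Reg3b probe from 0.13 to -0.27. The part of array brightness in coefficients with median scaling was not tested.
Nos2 and Duox2 varied together most closely (r = 0.80, rho = 0.66, permutation adjusted p = 0.0018 and 0.0112). The coefficient was 0.65 without the 2 mice farthest from the Nos2 median, 0.87 without the 3 mice above, and 0.83 and 0.71 within the high and low post-weaning diets. Values of both were higher on arrays with more probes detected (r = 0.56 for Nos2 and 0.63 for Duox2; permutation adjusted p = 0.0313 and 0.00815 over 195 relations). The coefficients were 0.34 and 0.35 without the 2 mice farthest from the median of the share detected. These were the arrays with the fewest probes detected, HL 2A (21.2%) and LL 3B (21.9%). The part of array quality in the relation of Nos2 and Duox2 was not tested.
Duox2 and Duoxa2 lie side by side on chromosome 2 and their proteins work as a pair, but their values were less alike (r = 0.25, rho = 0.39, permutation adjusted p = 0.407 and 0.219). The coefficient was 0.46 without the 3 mice and 0.70 with median scaling. Duox2 followed the epithelial markers (r = 0.74, rho = 0.71, permutation adjusted p = 0.00111 and 0.00682; r = 0.67 without 2 mice). Duoxa2 was lower where the goblet cell markers were higher (r = -0.73, rho = -0.72, permutation adjusted p = 0.00214 and 0.00682; r = -0.74 without 2 mice).
Reg3b and Duoxa2 varied in opposite directions (r = -0.64, rho = -0.76, permutation adjusted p = 0.00477 and 0.00108; r = -0.67 without 2 mice). The Reg3b probe is the one at the top of the scale, and its values were lower on arrays with more probes detected (r = -0.63, permutation adjusted p = 0.00808). Duoxa2 was higher on such arrays (r = 0.44, rho = 0.71, permutation adjusted p = 0.135 and 0.00585), and the part of array quality in this pair was not tested. The coefficient of Reg3b and Duoxa2 was -0.38 with median scaling. The dimmer Reg3b probe, below the ceiling, had r = -0.49 and rho = -0.71 with Duoxa2 (permutation adjusted p = 0.0836 and 0.00338 over 78 pairs of probes). For that probe r was -0.82 without the 3 mice and -0.11 with median scaling. Its values were also lower on arrays with more probes detected (r = -0.61, permutation adjusted p = 0.0133).
Lcn2 and the brightest Saa1 probe also varied in opposite directions (r = -0.67, rho = -0.64, permutation adjusted p = 0.00336 and 0.0125; r = -0.68 without 2 mice), but with median scaling r was 0.08. For the dimmer Saa1 probe the relation did not pass (r = -0.25, rho = -0.38, permutation adjusted p = 0.487 and 0.286 over 78 pairs of probes). Without the 3 mice r for that probe was -0.68. Lcn2 and Duoxa2 had r = 0.63 and rho = 0.32 (permutation adjusted p = 0.0147 and 0.322), and r was 0.17 without the 2 mice farthest from the Lcn2 median, so the relation rested on these mice. With median scaling it was 0.84 over all 24 mice.
Reg3g and the dimmer Reg3b probe varied together (r = 0.69, rho = 0.67, permutation adjusted p = 0.00409 and 0.00967 over 78 pairs of probes; r = 0.69 without 2 mice), while with the Reg3b probe at the ceiling r was 0.13. With median scaling r for the dimmer probe was 0.42. As for the Saa copies, the part of shared sequence was not checked.
For Saa3 the mice fell into separate clusters, so its relations were taken within the 21 other mice, over 23 relations. There Saa3 and Lcn2 had r = 0.15 (rho = 0.11, permutation adjusted p = 0.821 and 0.662), and Saa3 and Duoxa2 had r = -0.19 (rho = -0.11, permutation adjusted p = 0.731 and 0.662). Saa3 had r = 0.51 and rho = 0.61 with the macrophage and monocyte markers (permutation adjusted p = 0.0994 and 0.0473; r = 0.42 without 2 mice), and r = 0.50 and rho = 0.61 with the 2 Paneth cell markers (permutation adjusted p = 0.103 and 0.0473; r = 0.57 without 2 mice). With the neutrophil markers it had r = 0.55 and rho = 0.50 (permutation adjusted p = 0.0717 and 0.106), and with the genes of the inducing IL-22, IL-17, IL-6 and STAT3 pathways r = 0.57 and rho = 0.53 (permutation adjusted p = 0.0717 and 0.0877). It had r = -0.62 and rho = -0.57 with the epithelial markers (permutation adjusted p = 0.0637 and 0.0607; r = -0.57 without 2 mice). Lcn2 over all 24 mice had r = 0.81 and rho = 0.59 with the macrophage and monocyte markers (permutation adjusted p = 0.00078 and 0.043), and r = 0.66 without 2 mice and 0.50 without the 3 mice.

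**Figure D4:**
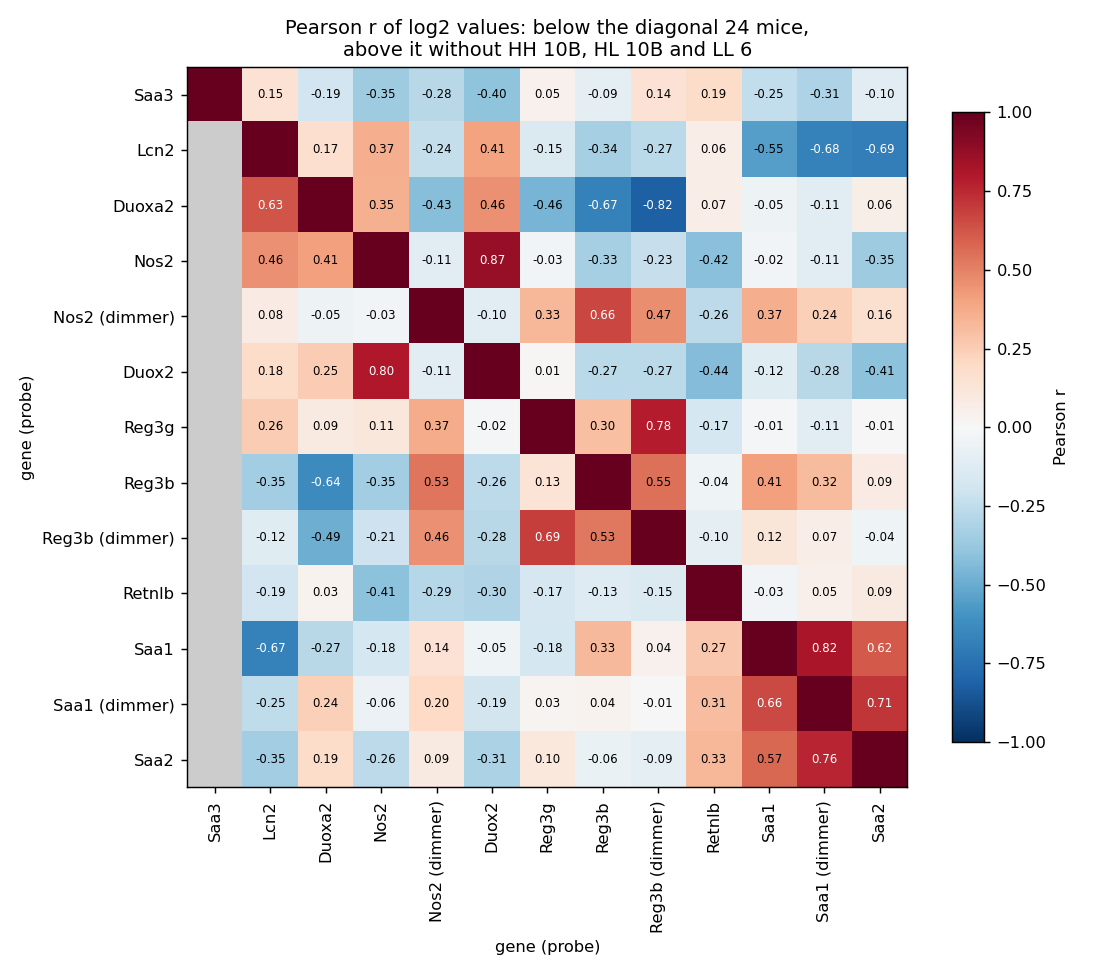
Pearson r between the log2 values of each pair of the 13 probes (rows and columns), over 24 mice below the diagonal and without HH 10B, HL 10B and LL 6 above it; pairs of Saa3 over 24 mice are left grey because its values form separate clusters. Nos2 and Duox2 have 0.80 and 0.87, and Lcn2 and Saa3 have 0.15 in the 21 mice.

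**Figure D5:**
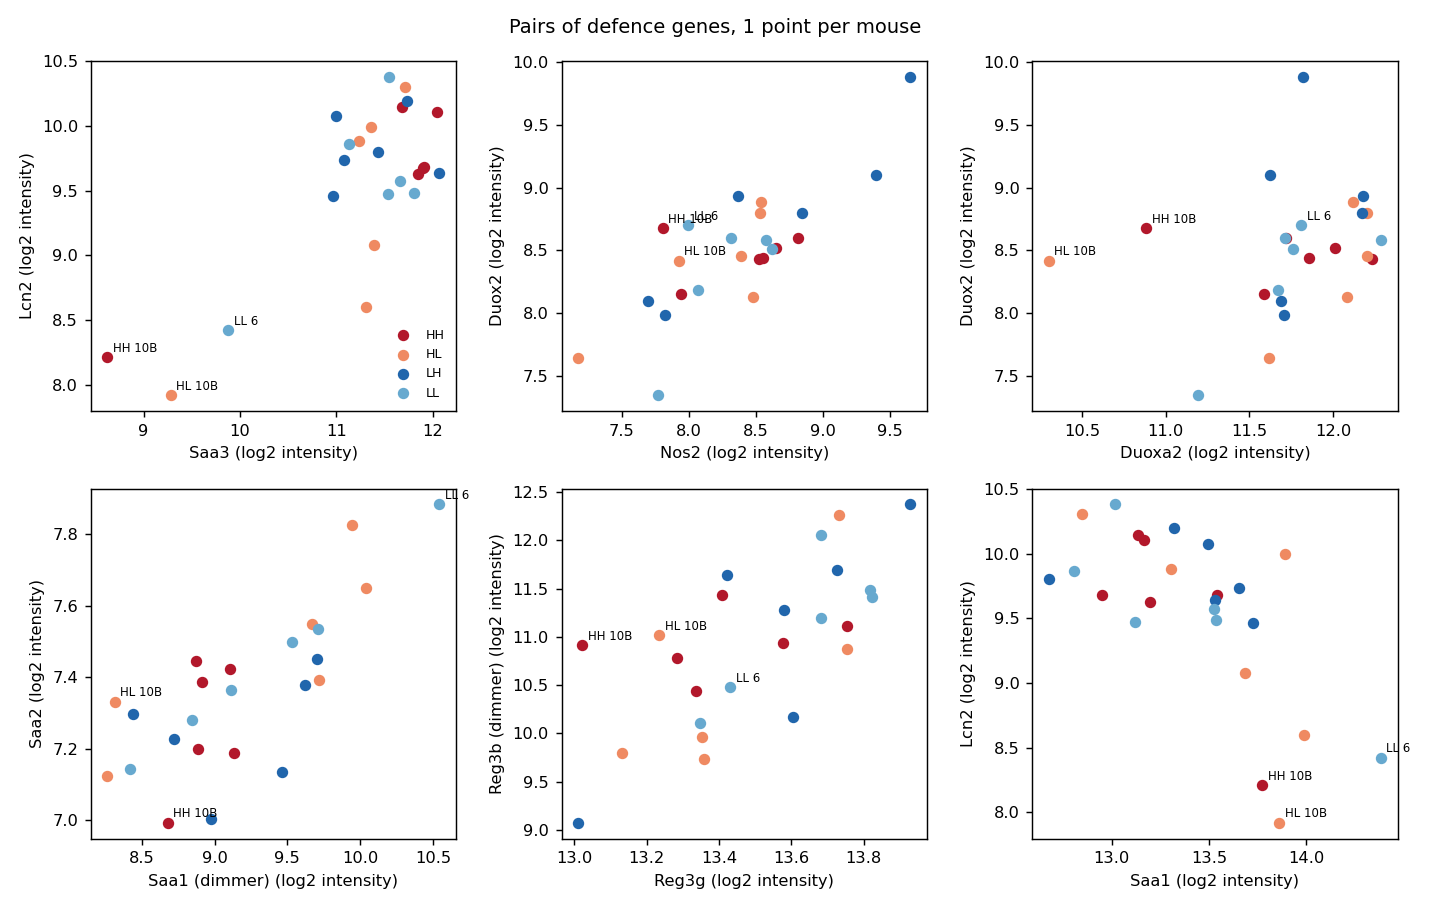
Log2 intensities of 6 pairs of probes, with 1 point per mouse coloured by diet group (both axes in log2 units) and 3 mice labelled. The 3 labelled mice lie apart from the rest for Saa3 and Lcn2, while Nos2 and Duox2 rise together with LH 3B and LH 13 at the upper end.

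The genes whose values were most like those of each member over the 24 mice, among 8892 genes detected on at least 12 arrays, are given as a description. For Saa3 they were Acod1, which makes itaconate in activated macrophages (r = 0.93), the chemokine gene Ccl8 (0.90) and the formyl peptide receptor gene Fpr2 (0.90), or 0.73, 0.77 and 0.67 without the 3 mice. For Lcn2 they were the stromelysin Mmp10 (r = 0.87), the chitinase-like gene Chil1 (0.86) and the lipopolysaccharide co-receptor Cd14 (0.84), or 0.66, 0.55 and 0.66 without the 3 mice.
For Duox2 they were the membrane mucin Muc4 (r = 0.91), the actin regulator Cap1 (0.89) and the transporter Slc12a7 (0.89), and for Nos2 they were Dhx8 (0.84), Lgals3bp (0.82) and Tmem50b (0.82). Duoxa2 was most like Wars, the tryptophanyl-tRNA synthetase (r = 0.85), Sema7a (0.83) and the lipid transporter Mfsd2a (0.83). These coefficients changed by less than 0.1 without the 3 mice for Duox2 and Nos2, while those of Duoxa2 were 0.71, 0.62 and 0.59.
Reg3g was most like the matrilysin Mmp7 (r = 0.76), which activates defensins in Paneth cells, followed by 2410004B18Rik and Snx1. Saa1 was most like Wfdc2 (r = 0.83), Cyp2d9 and Txnip, Retnlb most like Tmem53 (r = 0.76), Pex16 and Rnf26, and Reg3b most like the mitochondrial CYTB (r = 0.79), another bright probe at 14.54 to 15.15, Clns1a and Mlxipl.

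Other genes of the same defences were taken from lists of known members of each pathway, made when earlier results of these data were known. Of 24 other secreted antimicrobial genes tested, means by post-weaning diet were higher for 14 and lower for 10, and limma's test was passed by 0, with a median difference of 0.04. Slpi, a secreted protease inhibitor, averaged 12.26 in high-diet and 11.65 in low-diet mice, a difference of 0.61 (standard error 0.23), and Reg3a, a lectin of the same family as Reg3g, was at 7.77 and 8.31, a difference of -0.54 (adjusted p = 0.944 from limma for both). By pre-weaning diet 9 of 25 were higher and 16 lower, with 0 passing. The smallest p-values there were those of Pglyrp1, a peptidoglycan recognition protein, at -0.07, and Reg3a at 0.23.
Of 20 other genes of NADPH oxidases and nitric oxide, 12 were higher and 8 lower by post-weaning diet and 7 higher and 13 lower by pre-weaning diet, with 0 passing. Nox1, the main NADPH oxidase of colonocytes, averaged 9.41 in high-diet and 8.92 in low-diet mice after weaning, a difference of 0.49 (standard error 0.182; adjusted p = 0.944 from limma). Txnip differed by -0.16, and by pre-weaning diet the arginase Arg2 differed by -0.22 and the arginine-forming Ass1 by -0.15.
Of 24 genes of the IL-22, IL-17, IL-6 and STAT3 pathways that induce these defences, 17 were higher and 7 lower by post-weaning diet and 12 were higher and 12 lower by pre-weaning diet, again with 0 passing. Il11, detected on 4 arrays, differed by 0.16 and Il10rb, a chain shared by the receptors for IL-10 and IL-22, by 0.24 (adjusted p = 0.944 from limma for both). By pre-weaning diet Nfkbiz differed by -0.19 and Tnf by -0.22.
Among other acute-phase genes 6 of 13 were higher by post-weaning diet and 5 of 13 by pre-weaning diet. Mt2 and Apcs differed by -0.14 and -0.05 by post-weaning diet, and Hpx and Steap4 by -0.08 and -0.11 by pre-weaning diet. In the RELM family, to which Retnlb belongs, Retnlg and Retnla differed by 0.15 and -0.10 by post-weaning diet, and Retn and Retnlg by 0.07 and 0.07 by pre-weaning diet. No gene of either list passed.

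Tissue markers give the setting of these values. Of 12 epithelial markers 11 were detected on all 24 arrays, with Epcam on 0, and of 8 goblet cell markers 6 were on all. By post-weaning diet all 12 smooth muscle markers had lower means on the high diet (median -0.20), as did all 10 exocrine pancreas markers tested (median -0.39). All 9 neutrophil markers tested had higher means (median 0.12), while 47.3% of all 15009 genes were higher. Each list had 0 genes passing limma's test. Only 4 of these pancreas and 4 of these neutrophil markers were detected on at least 12 arrays, and 1 neutrophil marker on 0. The centred mean of 5 pancreas markers was 2.21 in HL 8C and 1.90 in LL 13A, both low-diet mice, and at most 0.54 in the others. By pre-weaning diet 11 of 12 smooth muscle markers had higher means with the high diet (median 0.11), where 8 of the 10 defence genes had lower means, and higher means were found for 4 of 11 pancreas markers and 4 of 10 neutrophil markers. The centred mean of the smooth muscle markers ranged from -0.34 to 0.56 for HH, from -0.14 to 0.82 for HL, from -0.35 to 0.08 for LH and from -0.18 to 0.78 for LL mice. Their part in the differences of the defence genes by either diet was not tested. Arrays detected 21.2% to 37.0% of their probes, and precision is limited by how many arrays there were. The probe of Il10, the disrupted gene, read 7.15 to 8.09 and was detected on 20 arrays, and its position relative to the disruption is not known, so it checks no label.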

How the data were processed

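RNA of the proximal colon of 24 mice was hybridized to Illumina MouseWG-6 v2 arrays, 1 per mouse. Deposited for each probe and array were a raw intensity and a detection score, with the score near 1 where a probe exceeds background. The authors also deposited log2 values, quantile normalized in GeneSpring. These log2 values were used as deposited, and normalizing the raw intensities again differed from them by at most 0.000415. A probe was called detected at a score above 0.99. Gene symbols came from the platform annotation, and 10378 probes without and 18 with several symbols were not named.
The brightest probe stood for a gene. Probes above the 20th percentile of their array in at least 80% of arrays of either group compared were kept, following the study's filter. limma 3.58.1 (lmFit, eBayes; R 4.3.3) was fitted with 1 mean per group over all 24 arrays, with Benjamini-Hochberg adjustment over all probes kept, and was tested on simulated data. Permutation tests of differences and correlations were two-sided with 100000 resamples (Python 3.11.15, numpy 2.4.6), and the replicates are mice. No scan date or chip position is in the sources used here, so batches could not be examined.
The members and lists were chosen with earlier results of these data known. The named genes of other lists are the 2 with the smallest p per list and diet, and the 3 most alike per member. Markers of Paneth cells, hepatocytes and adipocytes also had 0 genes passing. Tried as alternatives were neqc, median scaling, other filters, a covariate for the share detected, the label of the mother as a block, each mouse left out, another rule for probes, and the study's test.
The label of the mother pairs 4 mice on the high with 4 on the low post-weaning diet. Deviations from the group means of such pairs correlated at 0.613 (10B), 0.399 (10), 0.00443 (13) and -0.153 (3B) over 37654 probes, and the consensus correlation within mothers was 0.139.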

Additional observations from a re-analysis of the deposited data

Results flagged for a closer look

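Within groups of 6 mice, 5 values lay farther from their nearest neighbour than Dixon's criterion allows, a gap above 0.625 of the range of the group, and 40 groups were tested, of which chance gives about 1 in 20, or 2. Saa3 was low at 8.62 in HH 10B, with the other 5 HH mice at 11.68 to 12.04. Saa3 was also low at 9.28 in HL 10B, with the others at 11.24 to 11.71, and at 9.88 in LL 6, with the others at 11.13 to 11.80. Lcn2 was low at 8.21 in HH 10B, with the others at 9.62 to 10.14, and Duoxa2 was low at 10.30 in HL 10B, with the others at 11.62 to 12.20. These values came from 3 mice, of which HH 10B and HL 10B share a mother. No difference between groups in the effect of a diet passed its test.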

How the results depend on the processing

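Under every alternative 0 of the 10 genes passed, but the median difference over the genes was not stable in sign. By pre-weaning diet it was -0.12, and 0.022 with median scaling. By post-weaning diet it was 0.023 and ran from -0.021 (without HL 10B) to 0.095 (median scaling). With median scaling the median over all probes tested was itself 0.034 by pre-weaning and 0.019 by post-weaning diet. With the replicate block by mother the Saa2 post-weaning difference was -0.21 (limma, adjusted p = 0.841), and the block changed no call. By the study's own test probe by probe, 1 gene (post-weaning) and 0 (pre-weaning) passed unadjusted and 0 after Benjamini-Hochberg adjustment. Of 640 alternative values of single genes, 31 changed sign. With median scaling these were Reg3g by post-weaning diet (0.019) and, by pre-weaning diet, Lcn2 (0.018), Saa3 (0.057), Nos2 (0.034) and Duoxa2 (0.13). Without HH 10B, HL 10B and LL 6, chosen after seeing the data, they were Duoxa2 by post-weaning (-0.012) and pre-weaning diet (0.17) and Saa3 by pre-weaning diet (0.18). With the share detected as covariate it was Duoxa2 by post-weaning diet (-0.012), and with the mean of the probes Saa1 by pre-weaning diet (-0.042). Leaving out single mice gave ranges that crossed 0 for Duoxa2 (-0.10 to 0.13) and Reg3b (-0.024 to 0.031) by post-weaning diet, and for Duoxa2 (-0.12 to 0.077), Saa1 (-0.027 to 0.14), Saa2 (-0.0087 to 0.069) and Saa3 (-0.27 to 0.14) by pre-weaning diet. Others moved over 1.5 times with the sign kept, as Saa3 (0.026 to 0.47), Lcn2 (0.14 to 0.42) and Duox2 (0.17 to 0.36) by post-weaning diet. The pairs of genes with a passing r numbered 7, 6 with neqc, 20 with median scaling and 2 without the 3 mice. With median scaling r was 0.085 for Lcn2 and Saa1 and 0.094 for Saa1 and Saa3. For Saa3 and Duoxa2 it was -0.093 without the 2 mice farthest from the median and -0.19 without the 3 mice. The cause was not tested. Saa2 and the dimmer Nos2 probe lie near background, and Reg3b at the top of the scale, so small differences there are not measured.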
